A study of Rattus norvegicus with 8 samples.

Results

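The proliferative and hypertrophic zones of the rat femur growth plate were compared across genes, using the 2 arrays labelled proliferative and the 2 labelled hypertrophic out of 8 in the series. Each zone had 1 array at 42 days and 1 at 46 days of age, so the zones were compared with n = 2 each. The other 4 arrays, from the perichondral and reserve zones at the same ages, served only to estimate the spread. Every array (Rattus norvegicus, total RNA) carried RNA pooled from 3 rats, and no treatment, strain or sex is given in the sources used here. How the zones were cut apart, and whether the same rats gave tissue to several pools, is not given either. Since the 2 pools of a zone differ in age as well, the p-values rest on a spread that holds both.

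In the growth plate, chondrocytes divide in columns in the proliferative zone, laying down a matrix of type II collagen and the proteoglycan aggrecan. They then leave the cell cycle, swell and become hypertrophic chondrocytes, which make type X collagen and enzymes that open the matrix to blood vessels, osteoclasts and bone-forming cells. Indian hedgehog and parathyroid hormone-related protein hold cells in the dividing state, and C-type natriuretic peptide and insulin-like growth factors promote the lengthening of the bone.

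Levels below are log2(intensity + 16) of a probe set, the group of short probes that reads a transcript, after quantile normalization between arrays. A difference is the proliferative mean minus the hypertrophic mean on that scale, on which dim genes appear to differ by less than they do. The median probe set stood at 8.25. A yardstick of 38 genes typical of other organs gave a level of 9.85, the 0.95 quantile of their values, and a mean below it is called dim. Of all 14217 genes measured, 11556 were dim in both zones. Levels of different genes come from different probes and are not set against each other. Among the top share of 0.2 of probe sets by brightness, the 46-day proliferative array correlated at 0.735 with the 46-day hypertrophic array. That exceeded its correlation of 0.615 with the 42-day proliferative array and the 0.531 between both hypertrophic arrays. Genes, over which these were taken, are not independent replicates. For Gapdh, the ratio of its 3' to its 5' control probe set, which reflects RNA integrity and amplification, was 7.10 and 5.39 in proliferative arrays and 4.30 and 3.63 in hypertrophic arrays at 42 and 46 days. The actin ratio, at 1.85 and 4.56 in proliferative arrays and 1.71 and 4.59 in hypertrophic arrays, did not separate the zones and was higher at 46 days in both. The hexokinase ratio overlapped, at 1.02 and 2.47 in proliferative arrays and 1.10 and 0.42 in hypertrophic arrays. The part of RNA quality in the differences was not tested. Since every array is a mixed tissue sample, fewer cells of a type and less RNA per cell cannot be told apart.

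The collagenase Mmp13 and the gelatinase Mmp9 were the 2 named genes that passed the test, and both fell in proliferative arrays relative to hypertrophic arrays. Of 31042 probe sets, 4 (0.0129%) passed an adjusted p below 0.05 (limma, Benjamini-Hochberg over all probe sets), of which 1 (0.00322%) rose and 3 (0.00966%) fell. At an unadjusted p below 0.05 there were 1714. Without the 42-day proliferative array 0 were called (1818 unadjusted), without the 46-day proliferative array 1, without the 42-day hypertrophic array 9 and without the 46-day hypertrophic array 13. Without either reserve array 1 was called, and without either perichondral array 2. With age as a block, 11 probe sets passed, 5 higher and 6 lower, and these held all 4. The block used here is the shared age of arrays, 1 per zone.

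Mmp13, the main collagenase that hypertrophic chondrocytes and osteoblasts use to cut cartilage collagen, read 8.65 and 8.57 in proliferative arrays, against 14.73 and 14.09 in hypertrophic arrays, at 42 and 46 days. The zones were far apart at both ages and the proliferative level was dim. The difference was -5.80 (SE 0.66, adjusted p = 0.00411 with limma), a level 55.8-fold higher in hypertrophic arrays. As deposited, before normalization, its intensity was 366.1 and 435.4 in proliferative arrays and 29679 and 11530 in hypertrophic arrays. Mmp13 was past the threshold in 11 of 17 alternative settings; without the 42-day proliferative array its adjusted p was 0.151, and without the 46-day one 0.103.

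Mmp9, a gelatinase made by osteoclasts, other marrow-derived cells and late hypertrophic cartilage, read 5.48 and 5.70 in proliferative arrays, against 11.79 and 12.48 in hypertrophic arrays. Both proliferative values lay below the median probe set. The difference was -6.55 (SE 0.93, adjusted p = 0.025 with limma). No fold is given, since the proliferative values were near the floor of the scale, at deposited intensities of 26.9 and 44.0 with 16 added. A second Mmp9 probe set read 5.57 and 5.21 in proliferative arrays and 5.57 and 8.71 in hypertrophic arrays. There the zones overlapped, with a difference of -1.75 (SE 1.25, adjusted p = 0.933 with limma). Mmp9 was past the threshold in 5 of 17 alternative settings. Its adjusted p lay between 0.0824 and 0.266 with any 1 of the proliferative, hypertrophic or reserve arrays left out.

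The other called probe sets, 1387029_at and 1372647_at, carry no gene name in the annotation used here. Probe set 1387029_at read 8.09 and 7.35 in proliferative arrays, against 12.93 and 11.40 in hypertrophic arrays, a difference of -4.45 (SE 0.62, adjusted p = 0.025 with limma). Probe set 1372647_at read 10.68 and 10.39 in proliferative arrays, against 4.92 and 6.07 in hypertrophic arrays, a difference of 5.04 (SE 0.76, adjusted p = 0.0347 with limma). The zones were apart for both, and 1372647_at was the 1 probe set that rose.

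**Figure D1:**
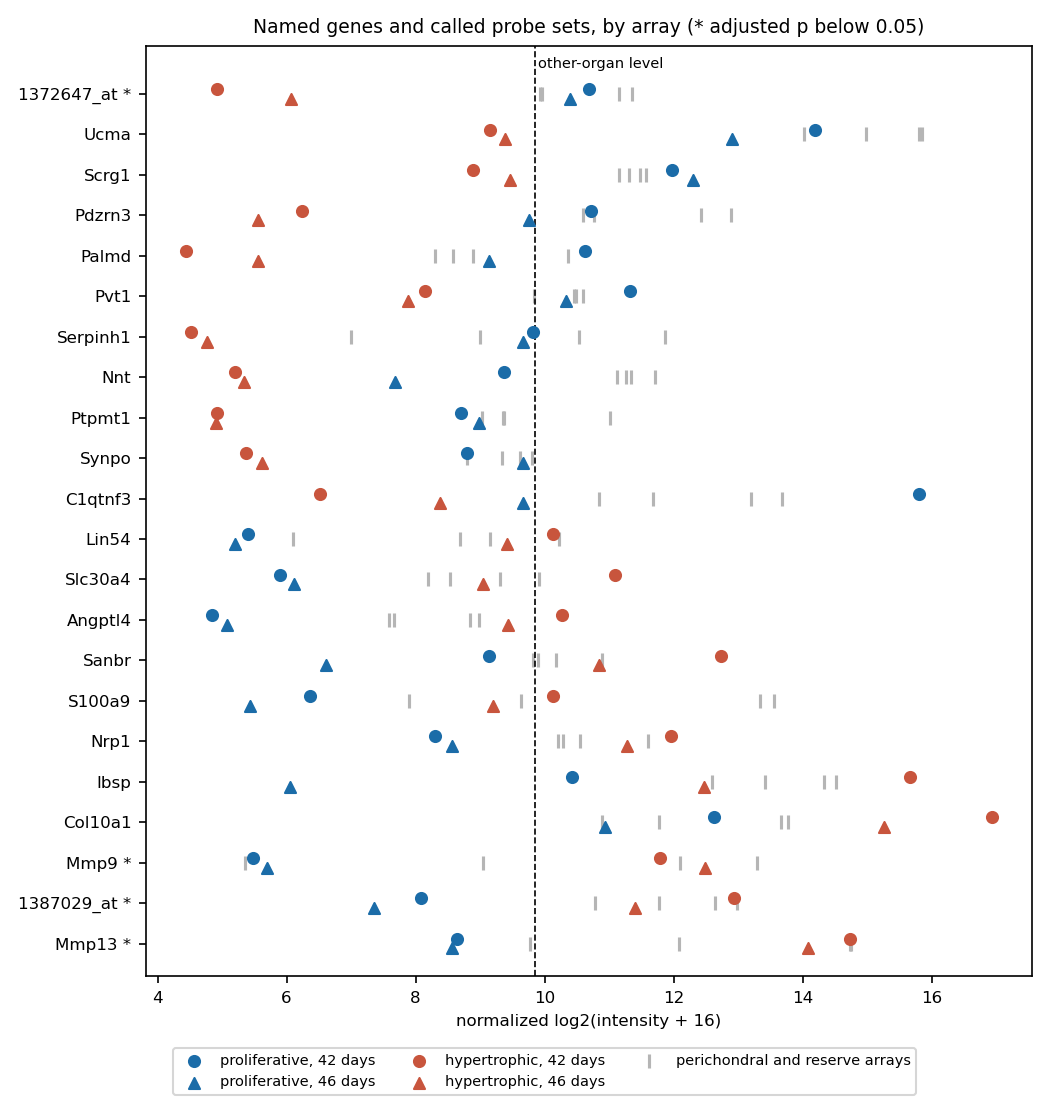
Normalized log2(intensity + 16) (horizontal axis) of the 20 named genes and the 2 called probe sets with no gene name, 1 row each. Blue and red symbols are proliferative and hypertrophic arrays (circles 42 days, triangles 46 days), grey ticks the perichondral and reserve arrays, the dashed line the other-organ level of 9.85, and asterisks mark the 4 that passed the test. The hypertrophic arrays lie left of all others in the upper 11 rows, and the proliferative arrays lie left of all others in 9 of the lower 11.

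The proximal promoters of 4 of the named genes are shown because these genes stood at the ends of the comparison: Mmp13, Col10a1 and Ibsp on the hypertrophic side and Ucma on the proliferative side. Each is the 250 bases before the gene's start in the RefSeq table (GRCr8): Mmp13 at chr8:12782579-12782828 (plus strand), Col10a1 at chr20:39737286-39737535 (plus), Ibsp at chr14:5757243-5757492 (minus) and Ucma at chr17:78212997-78213246 (minus). Capitals mark matches to the AP-1 motif (TGANTCA) and the RUNX core (TGTGGT, read on the other strand as ACCACA); AP-1 and RUNX factors are known regulators of Mmp13.
Mmp13: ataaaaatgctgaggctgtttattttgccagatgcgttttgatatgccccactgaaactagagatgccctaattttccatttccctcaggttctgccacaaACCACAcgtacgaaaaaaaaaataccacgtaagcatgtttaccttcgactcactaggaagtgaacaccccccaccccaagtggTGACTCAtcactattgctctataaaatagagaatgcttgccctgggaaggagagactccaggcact
Col10a1: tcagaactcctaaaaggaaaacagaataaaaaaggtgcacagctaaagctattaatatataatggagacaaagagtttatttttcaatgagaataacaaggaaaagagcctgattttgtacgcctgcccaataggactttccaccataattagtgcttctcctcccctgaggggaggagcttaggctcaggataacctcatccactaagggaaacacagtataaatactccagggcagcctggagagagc
Ibsp: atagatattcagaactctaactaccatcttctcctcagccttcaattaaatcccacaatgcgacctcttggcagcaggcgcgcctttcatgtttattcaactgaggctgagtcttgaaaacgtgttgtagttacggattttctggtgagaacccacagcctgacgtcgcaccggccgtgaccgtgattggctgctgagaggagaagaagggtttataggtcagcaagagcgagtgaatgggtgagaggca
Ucma: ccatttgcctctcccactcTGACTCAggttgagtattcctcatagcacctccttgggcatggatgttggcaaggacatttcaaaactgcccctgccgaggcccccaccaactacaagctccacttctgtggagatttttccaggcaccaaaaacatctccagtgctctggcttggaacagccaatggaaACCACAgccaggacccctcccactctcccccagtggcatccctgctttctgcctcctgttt
In Mmp13 the AP-1 match begins 66 bases and the RUNX core match 149 bases upstream of the start. In Ucma, on the other side of the comparison, they begin 231 and 61 bases upstream. No match to these motifs, or to the MEF2 motif, is in the Col10a1 and Ibsp windows. On both strands of all 33469 promoter windows of that length, AP-1 was found in 6.34%, the RUNX core in 14.5% and MEF2 in 3.41%. Among the 20 named genes, 9 of 10 in each direction had a promoter in the table, and in each direction 1 held AP-1, 3 held the RUNX core and 0 held MEF2. The matches are letters in a window and were not tested as binding sites.

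Type X collagen, the defining product of hypertrophic chondrocytes, followed the zone labels. Col10a1 read 12.62 and 10.94 in proliferative arrays, against 16.93 and 15.26 in hypertrophic arrays. The hypertrophic arrays were the highest of all 8, and the difference was the same size at both ages (-4.31 and -4.33). Its difference of -4.32 (SE 0.72) did not pass the test (adjusted p = 0.0766 with limma) and did so with age as a block (adjusted p = 0.00121).

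Ibsp, bone sialoprotein, a matrix protein of mineralizing bone and cartilage, read 10.42 and 6.05 in proliferative arrays, against 15.66 and 12.47 in hypertrophic arrays. The zones did not overlap, and in each the 46-day array was the lower one. The difference was -5.83 (SE 1.09, adjusted p = 0.192 with limma, and 0.0052 with age as a block). Dmp1, dentin matrix protein, an osteocyte product, read 8.89 and 8.04 in proliferative arrays, against 13.58 and 9.98 in hypertrophic arrays (difference -3.31, adjusted p = 0.864).

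Across a list of 24 measured genes of hypertrophic chondrocytes, 16 were lower and 8 higher in proliferative arrays, with a median difference of -0.70. The median over all 14217 genes was -0.0001, with 49.98% higher. In that list 2 genes fell past the threshold (Mmp13 and Mmp9) and 0 rose. Both proliferative arrays lay below both hypertrophic arrays for 9 of the 24, or 37.5%, where the share over all genes was 15.8%, and above for 2, where it was 15.5%. The list median was -0.72 at 42 days and -0.09 at 46 days. The other-organ list had a median of -0.48, with 26.3% apart in that direction.

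Several genes used as hypertrophic markers did not separate the zones. Spp1, osteopontin, read 8.83 and 8.51 in proliferative arrays and 9.47 and 8.57 in hypertrophic arrays (difference -0.36, SE 0.73). Alpl, the alkaline phosphatase of mineralizing cells, read 8.61 and 9.77 in proliferative arrays and 9.39 and 9.65 in hypertrophic arrays (difference -0.34, SE 0.71). Both were dim in both zones, and their zones overlapped.

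Vegfa, the growth factor that draws in blood vessels, read 10.01 and 9.42 in proliferative arrays and 10.32 and 8.24 in hypertrophic arrays. Panx3, a channel protein of maturing chondrocytes, read 11.09 and 10.18 in proliferative arrays and 11.02 and 9.53 in hypertrophic arrays. Phospho1, a phosphatase that starts mineral formation, read 7.01 and 8.73 in proliferative arrays and 7.12 and 6.17 in hypertrophic arrays. All 3 overlapped between zones, with differences of 0.43, 0.36 and 1.23 in that order. A second, dim Vegfa probe set differed by -0.82.

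Mef2c, a transcription factor that drives hypertrophy, read 12.36 and 12.42 in proliferative arrays, against 14.14 and 12.54 in hypertrophic arrays (difference -0.95, SE 0.62, adjusted p = 0.929 with limma). The zones were apart by a narrow margin at 46 days. A second Mef2c probe set overlapped between zones, with a difference of -0.02. In the list of 15 measured chondrocyte transcription factors, 6 were higher and 9 lower, with a median of -0.08, and 0 passed the test in either direction. Zfp423, a zinc finger factor (difference 1.13), and Pitx1, a homeobox factor of the hind limb (difference 1.02), were the members above the other-organ level with both proliferative arrays higher, besides Mef2c on the other side.

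**Figure D2:**
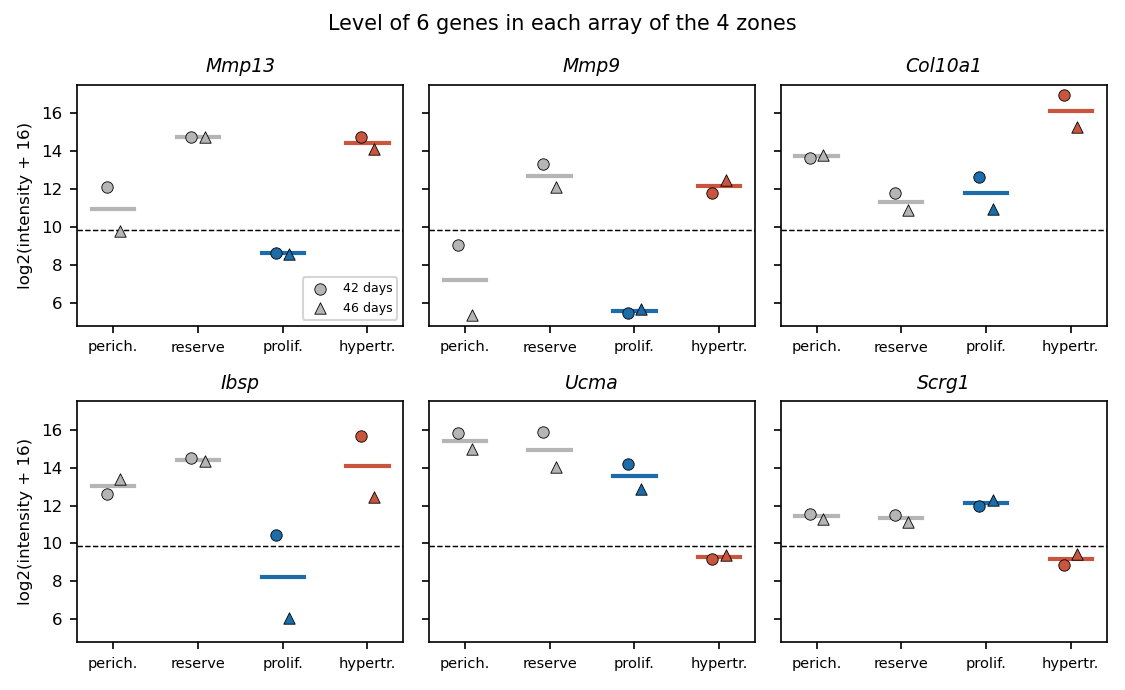
Normalized log2(intensity + 16) (vertical axis) of Mmp13, Mmp9, Col10a1, Ibsp, Ucma and Scrg1 in the perichondral, reserve, proliferative and hypertrophic zones. Circles are 42-day and triangles 46-day arrays, short lines the mean of both, and the dashed line the other-organ level of 9.85. Mmp13, Mmp9 and Ibsp are as high in reserve as in hypertrophic arrays, and Col10a1 is highest in hypertrophic arrays.

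The matrix of cartilage ran the other way from the hypertrophic genes. Of 24 measured cartilage matrix genes, 21 were higher and 3 lower in proliferative arrays, with a median difference of 1.26, of 1.13 at 42 days and 1.67 at 46 days. Both proliferative arrays lay above both hypertrophic arrays for 15 of the 24, or 62.5% (all genes, 15.5%), and below for 0. No member passed the test in either direction, and 8 were higher and 0 lower at an unadjusted p below 0.05 (limma), which 3.08% of all genes reached as higher and 2.64% as lower. Beside these counts, the Gapdh ratio of 3' to 5' probe sets was also higher in both proliferative than in both hypertrophic arrays, the actin and hexokinase ratios overlapped, and their part was not tested.

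Ucma, a small secreted protein of the unique cartilage matrix-associated family, read 14.19 and 12.90 in proliferative arrays, against 9.16 and 9.39 in hypertrophic arrays. It was bright in proliferative arrays and dim in hypertrophic ones. The difference was 4.27 (SE 0.70), a 19.3-fold higher level, with an adjusted p of 0.0766 with limma and 0.00121 with age as a block. Ucma was higher still in the perichondral (15.80 and 14.99) and reserve arrays (15.86 and 14.02).

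Col9a1, a chain of the type IX collagen that coats type II fibrils, read 15.21 and 14.12 in proliferative arrays, against 12.84 and 10.02 in hypertrophic arrays. The difference of 3.24 (SE 0.90) had an adjusted p of 0.804 with limma and of 0.0223 with age as a block. Comp, cartilage oligomeric matrix protein, read 11.49 and 11.29 in proliferative arrays, against 10.47 and 9.05 in hypertrophic arrays (difference 1.63, SE 0.65, adjusted p = 0.897). For both genes the 46-day hypertrophic array was the lowest of the 4.

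Col2a1, the main collagen of cartilage, read 17.40 and 17.21 in proliferative arrays, against 17.13 and 15.86 in hypertrophic arrays (difference 0.81, SE 1.25). Acan, aggrecan, read 13.08 and 12.69 in proliferative arrays, against 12.19 and 10.66 in hypertrophic arrays (difference 1.46, SE 0.70). Hapln1, the link protein that ties aggrecan to hyaluronan, read 16.60 and 15.71 in proliferative arrays, against 15.21 and 14.55 in hypertrophic arrays (difference 1.27, SE 0.90). In these probe sets each was higher in both proliferative arrays, and none passed the test. Further Hapln1 probe sets differed by 0.66 and 0.98 and overlapped between zones. For Col2a1, another probe set was apart by 1.05, and a dim one overlapped with a difference of 0.045. A second, dim Acan probe set differed by -0.04.

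Matn1, matrilin, a linker of cartilage fibrils, read 10.21 and 10.36 in proliferative arrays, against 9.29 and 9.79 in hypertrophic arrays (difference 0.75, SE 0.63). Mgp, matrix Gla protein, an inhibitor of calcification, read 12.30 and 8.07 in proliferative arrays and 9.99 and 7.77 in hypertrophic arrays (difference 1.30, SE 1.14). The Mgp zones overlapped, and the gene was lower at 46 days in both.

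Scrg1, a secreted protein of cartilage and of brain, read 11.97 and 12.30 in proliferative arrays, against 8.89 and 9.46 in hypertrophic arrays. Of the 10 named genes on the proliferative side it was the 1 whose proliferative arrays stood above all other 6. Its difference was 2.96 (SE 0.54, adjusted p = 0.162 with limma, and 0.0399 with age as a block).

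Enzymes that build and sulfate glycosaminoglycans, the sugar chains of aggrecan, were split. Of 30 measured, 17 were higher and 13 lower, with a median of 0.42. Both proliferative arrays lay above both hypertrophic arrays for 33.3% (all genes, 15.5%) and below for 13.3% (all genes, 15.8%). Csgalnact1, which starts chondroitin sulfate chains, read 13.42 and 11.22 in proliferative arrays, against 11.03 and 9.73 in hypertrophic arrays (difference 1.94, adjusted p = 0.894). Papss2, which makes the sulfate donor, read 13.40 and 13.35 in proliferative arrays, against 12.93 and 10.11 in hypertrophic arrays (difference 1.85, adjusted p = 0.916). Ext1, a heparan sulfate polymerase (difference 2.24), and Chsy1, a chondroitin synthase (difference 1.26), rested mainly on a low 42-day hypertrophic array. No member passed the test.

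Among 24 measured genes of collagen processing, 14 were higher and 10 lower, with a median of 0.39 (0.17 at 42 days, 0.96 at 46 days). None passed the test, and 6 of the 24 were higher and 2 lower at an unadjusted p below 0.05 (limma; all genes, 3.08% and 2.64%). Plod2, a lysyl hydroxylase that prepares collagen crosslinks, read 11.40 and 11.25 in proliferative arrays, against 8.82 and 9.28 in hypertrophic arrays (difference 2.28, SE 0.58, adjusted p = 0.751). Serpinh1, the collagen chaperone HSP47, read 9.82 and 9.66 in proliferative arrays, against 4.52 and 4.76 in hypertrophic arrays (difference 5.10, SE 1.15, adjusted p = 0.537). It was dim in both zones, and its second probe set differed by 1.495. Tmem38b, an endoplasmic reticulum ion channel needed for collagen modification, went the other way, at 11.49 and 10.63 in proliferative arrays, against 13.61 and 12.94 in hypertrophic arrays (difference -2.22, adjusted p = 0.851).

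**Figure D3:**
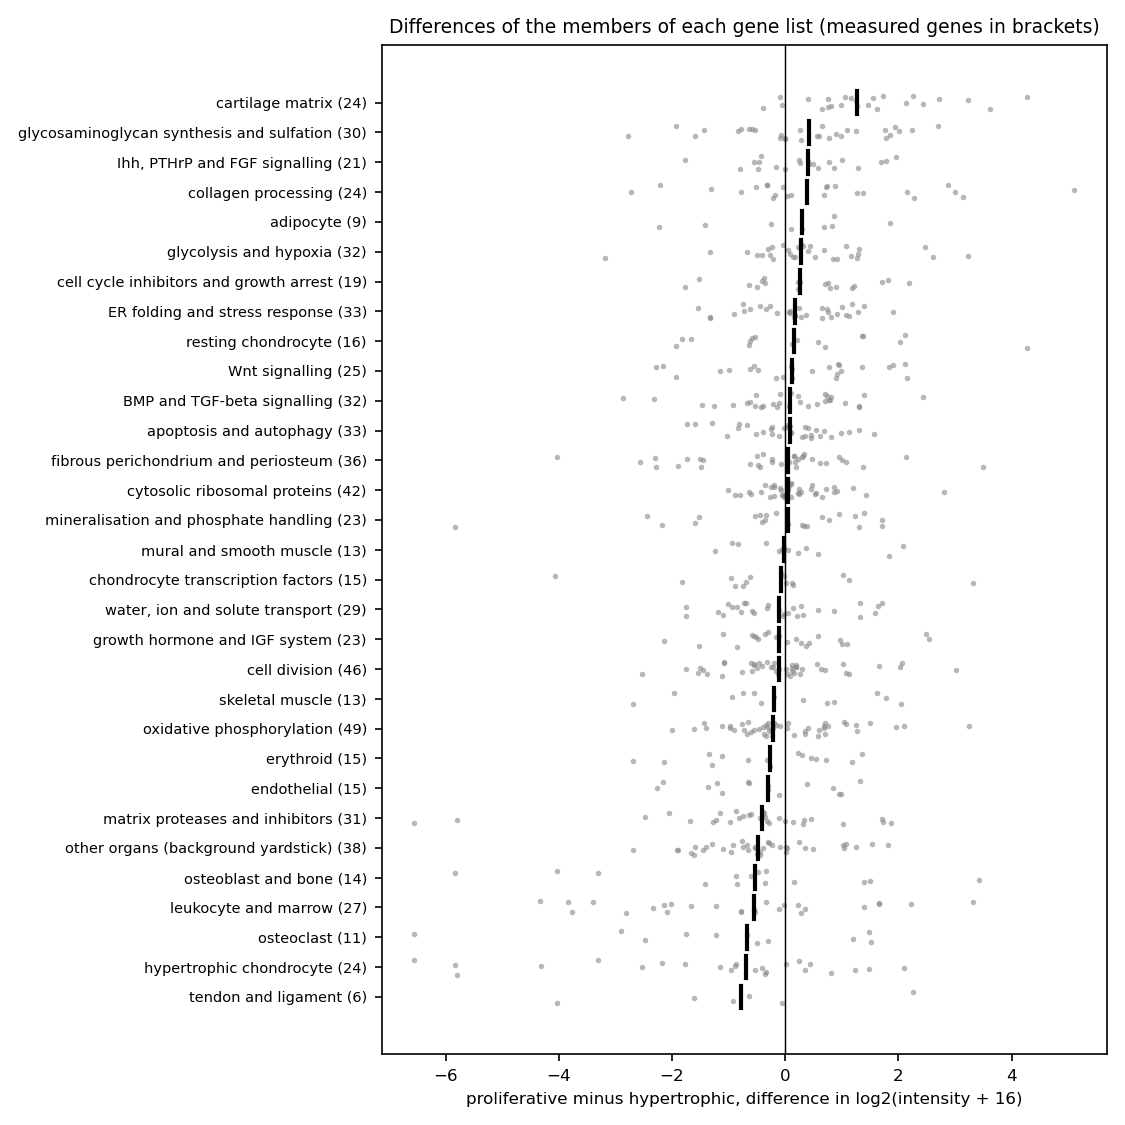
Difference in log2(intensity + 16), proliferative minus hypertrophic (horizontal axis), of each measured member (grey points) of 31 gene lists, with the list median as a black bar. Cartilage matrix has the highest median at 1.26, and tendon and ligament, with 6 measured genes, the lowest at -0.78. Hypertrophic chondrocyte genes stand at -0.70, osteoclast genes at -0.68, and the other-organ list, which has no role in the plate, at -0.48.

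The remaining genes named on the proliferative side were apart at both ages without passing the test. Pdzrn3, a ubiquitin ligase, read 10.72 and 9.76 in proliferative arrays, against 6.24 and 5.55 in hypertrophic arrays (difference 4.35, adjusted p = 0.162, and 0.0052 with age as a block). Palmd, palmdelphin, read 10.62 and 9.14 in proliferative arrays, against 4.45 and 5.56 in hypertrophic arrays (difference 4.88, adjusted p = 0.286). Its 3 other probe sets differed by less, at 0.50, 2.17 and 2.08. The hypertrophic values of Palmd were near the floor of the scale, at deposited intensities of 6.2 and 37.3. Pvt1, a long noncoding RNA beside Myc, read 11.32 and 10.34 in proliferative arrays, against 8.15 and 7.88 in hypertrophic arrays (difference 2.81, adjusted p = 0.513). In each of these the hypertrophic arrays were dim.

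Nnt, a mitochondrial enzyme that makes NADPH (difference 3.25), Ptpmt1, a mitochondrial phosphatase of cardiolipin synthesis (3.93), and Synpo, an actin-binding protein (3.73), were dim in both zones, each with an adjusted p of 0.565. In hypertrophic arrays all 3 were near the floor of the scale, Ptpmt1 at deposited intensities of 14.4 and 17.3. A further Synpo probe set differed by -1.32 and another by 0.81, so its probe sets disagree in sign.

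C1qtnf3, a secreted protein of the adiponectin family known from cartilage, read 15.80 and 9.66 in proliferative arrays and 6.52 and 8.37 in hypertrophic arrays. The 42-day proliferative array was the highest of all 8 and carried most of the difference of 5.28 (SE 1.24, adjusted p = 0.572).

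On the hypertrophic side, Nrp1, a receptor for VEGF and semaphorins, read 8.31 and 8.57 in proliferative arrays, against 11.96 and 11.28 in hypertrophic arrays (difference -3.18, SE 0.61, adjusted p = 0.238). Angptl4, a secreted lipase inhibitor that responds to low oxygen and fasting, read 4.84 and 5.07 in proliferative arrays, against 10.26 and 9.43 in hypertrophic arrays (difference -4.89, SE 1.05, adjusted p = 0.432). Slc30a4, a zinc transporter, read 5.89 and 6.11 in proliferative arrays, against 11.10 and 9.04 in hypertrophic arrays (difference -4.07, adjusted p = 0.491). All 3 were dim in proliferative arrays, and Angptl4, like Col10a1, was highest in the hypertrophic arrays of all 8.

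Sanbr, which in mice restrains antibody class switching, read 9.14 and 6.60 in proliferative arrays, against 12.73 and 10.84 in hypertrophic arrays (difference -3.91, adjusted p = 0.397). Of its other probe sets 1 differed by 0.30 and 1 by -0.63. Lin54, a DNA-binding subunit of a cell cycle complex, read 5.40 and 5.20 in proliferative arrays, against 10.13 and 9.42 in hypertrophic arrays (difference -4.47, adjusted p = 0.579). Slc30a4 also had a second probe set with a difference of 0.36.

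Among matrix proteases and their inhibitors, 22 of 31 measured genes were lower and 9 higher in proliferative arrays, with a median of -0.41. The other-organ list came to -0.48, with 26 of 38 lower, so the median of the proteases did not stand below it. In the list 2 fell past the threshold (Mmp13 and Mmp9) and 0 rose. Adamts4, an aggrecanase, read 7.47 and 8.55 in proliferative arrays, against 10.83 and 9.29 in hypertrophic arrays (difference -2.05, adjusted p = 0.894). Mmp23, a membrane-linked metalloprotease, read 9.61 and 10.37 in proliferative arrays, against 8.61 and 7.95 in hypertrophic arrays (difference 1.71, adjusted p = 0.903). Of the 31 genes, 24 were dim in both zones.

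In mineralisation and phosphate handling, 12 of 23 measured genes were higher and 11 lower, with a median of 0.04, and 0 passed the test. Besides Ibsp, Slc13a5, a citrate transporter, read 8.47 and 9.24 in proliferative arrays, against 11.86 and 10.22 in hypertrophic arrays (difference -2.18, SE 0.69, adjusted p = 0.887).

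The name of the proliferative zone was not matched by its cell division genes. Of 46 measured, 22 were higher and 24 lower in proliferative arrays, with a median of -0.12, of 0.27 at 42 days and -0.01 at 46 days. Proliferative arrays lay above both hypertrophic arrays for 4 and below for 4 (8.70% each), where the share over all genes was 15.5% above and 15.8% below. None passed the test, and 2 of the 46 were higher and 1 lower at an unadjusted p below 0.05, close to the 3.08% and 2.64% over all genes (limma). Of the 46 genes, 33 were dim in both zones (all genes, 11556 of 14217), which limits what this list can show. The zones are called by their labels only.

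Mki67, the Ki-67 antigen of cycling cells, read 12.84 and 13.04 in proliferative arrays and 14.02 and 12.84 in hypertrophic arrays (difference -0.49, SE 0.62). Top2a, the topoisomerase of dividing cells, read 9.31 and 7.18 in proliferative arrays and 9.98 and 8.66 in hypertrophic arrays (difference -1.07, SE 0.84). Pcna, the clamp of DNA replication, read 11.05 and 10.63 in proliferative arrays and 12.22 and 10.66 in hypertrophic arrays (difference -0.60, SE 0.71). In Mki67 and Pcna the 42-day hypertrophic array was the highest of the 4, and all 3 genes overlapped between zones. A second, dim Top2a probe set differed by 1.10, the opposite sign. Birc5, survivin, of the mitotic spindle, was the member above the other-organ level with both proliferative arrays higher, by 0.70 (SE 0.66). Among 19 cell cycle inhibitors, 12 were higher and 7 lower, with a median of 0.27 and 0 past the threshold.

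No signalling gene of the lists below passed the test. Of 21 measured genes of the Ihh, PTHrP and FGF pathways, 13 were higher and 8 lower, with a median of 0.41 and 0 past the threshold in either direction. Ihh, Indian hedgehog, which prehypertrophic cells secrete, read 7.34 and 5.14 in proliferative arrays and 9.03 and 6.98 in hypertrophic arrays (difference -1.77, SE 1.16). It was dim throughout. Pth1r, the receptor for parathyroid hormone-related protein, read 9.45 and 9.61 in proliferative arrays and 9.58 and 8.997 in hypertrophic arrays (difference 0.24, SE 0.70). Fgfr3, a receptor that slows chondrocyte growth, read 12.44 and 12.96 in proliferative arrays and 12.96 and 13.39 in hypertrophic arrays (difference -0.47, SE 0.58). All 3 overlapped. Second, dim probe sets had the opposite sign for Pth1r (-0.61) and Fgfr3 (0.98).

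Nppc, the gene of C-type natriuretic peptide, was apart. It read 11.01 and 11.64 in proliferative arrays, against 9.48 and 9.62 in hypertrophic arrays (difference 1.78, SE 0.57, adjusted p = 0.893). Its receptor Npr2 read 6.33 and 7.44 in proliferative arrays and 7.89 and 6.97 in hypertrophic arrays (difference -0.54, SE 1.04), dim and overlapping.

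Of 32 BMP and TGF-beta genes, 17 were higher and 15 lower (median 0.09). Id2, a target of BMP signals, read 12.55 and 9.53 in proliferative arrays, against 9.39 and 7.84 in hypertrophic arrays (difference 2.43). Tgfb2, a ligand, read 11.70 and 11.57 in proliferative arrays, against 10.16 and 10.50 in hypertrophic arrays (difference 1.31). The receptor Tgfbr1 (difference -1.47) and the BMP-signal mediator Smad9 (-2.32) were lower in both proliferative arrays. All 4 had adjusted p from 0.894 to 0.897. Of 25 Wnt genes, 15 were higher and 10 lower (median 0.13). Tcf7, a transcription factor of Wnt signals, read 11.32 and 11.04 in proliferative arrays, against 8.61 and 10.06 in hypertrophic arrays (difference 1.84, adjusted p = 0.894).

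Of 23 genes of the growth hormone and IGF system, 11 were higher and 12 lower (median -0.11), and 0 passed the test. Ghr, the growth hormone receptor, read 8.60 and 9.42 in proliferative arrays, against 5.03 and 7.90 in hypertrophic arrays (difference 2.54, SE 1.18, adjusted p = 0.897), dim in both, and a second probe set differed by -0.17. H19, the imprinted noncoding RNA beside Igf2, read 11.29 and 10.45 in proliferative arrays, against 8.66 and 8.11 in hypertrophic arrays (difference 2.48, adjusted p = 0.897). Irs1, an adaptor of the IGF receptor, was higher by 1.10 (adjusted p = 0.912). Igf1 (difference -0.56, SE 0.67), a main growth factor of the plate, overlapped between zones, and its other probe sets differed by -0.09 and 0.66. Igf2 (1.002, SE 1.14) also had probe sets of both signs.

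In metabolism, 22 of 32 measured genes of glycolysis and hypoxia were higher in proliferative arrays, with a median of 0.27 (0.35 at 42 days, 0.47 at 46 days). Both proliferative arrays lay above both hypertrophic arrays for 10, or 31.3% (all genes, 15.5%), and below for 0, and none passed the test. Slc2a1, the glucose transporter GLUT1, read 10.16 and 10.63 in proliferative arrays, against 9.06 and 9.57 in hypertrophic arrays (difference 1.08, SE 0.59, adjusted p = 0.912). Pgam1, a glycolytic enzyme, read 12.99 and 11.19 in proliferative arrays, against 11.0005 and 10.65 in hypertrophic arrays (difference 1.27, SE 0.72, adjusted p = 0.916). Of the 32 genes, 22 were dim in both zones.

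Oxidative phosphorylation had 21 of 49 genes higher and a median of -0.21, although Ndufs6 (difference 1.497) and Ndufb3 (1.26), subunits of complex I, were higher in both proliferative arrays, each with an adjusted p of 0.897. Among 33 genes of protein folding and stress in the endoplasmic reticulum, 22 were higher (median 0.17), with Sec24d, a coat protein of collagen export vesicles (1.01), and the stress factor Xbp1 (0.75) apart. Cytosolic ribosomal proteins had 24 of 42 higher (median 0.05), with Rps13 apart by 1.20. None of the members of these 3 lists passed the test.

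Some genes of other cell types differed between the zones mostly through the 42-day hypertrophic array, and others differed at both ages. The neutrophil gene S100a9 differed by -3.77 at 42 days and -3.76 at 46 days, and Ibsp by -5.23 and -6.43. The leukocyte gene Cd48 differed the other way, by 3.35 and 3.30. Col1a1, the bone and fibrous tissue collagen, read 10.12 and 9.24 in proliferative arrays, against 16.09 and 11.33 in hypertrophic arrays (difference -4.03, SE 1.10, adjusted p = 0.804). Col1a2, its partner chain, read 12.17 and 11.36 in proliferative arrays, against 16.39 and 12.29 in hypertrophic arrays (difference -2.57, adjusted p = 0.896). The zones did not overlap for either, and the gap was widest at 42 days.

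The summed intensity of 14 osteoblast and bone genes was 13557 and 7618 in proliferative arrays, against 139835 and 15734 in hypertrophic arrays, at 42 and 46 days. For 36 fibrous perichondrium and periosteum genes the sums were 71896 and 38277 in proliferative arrays, against 242610 and 29452 in hypertrophic arrays. The first list has its zones apart and the second has the 46-day hypertrophic array lowest. Without Ibsp the bone sums were 12200.5 and 7567 in proliferative arrays, against 88203 and 10059 in hypertrophic arrays, and the zones overlapped. Sums of linear intensities weigh the brightest members most. Col1a1, which read 16.09 in the 42-day hypertrophic array, is in both lists and was not left out. Of the bone genes 4 were higher and 10 lower in proliferative arrays (median -0.53), of the fibrous genes 19 and 17 (median 0.05). Omd, osteomodulin, a bone proteoglycan, ran the other way, at 12.59 and 9.37 in proliferative arrays, against 8.08 and 7.04 in hypertrophic arrays (difference 3.42, adjusted p = 0.804). So did Prrx1, a limb mesenchyme factor (3.49), and Tgfbi, a TGF-beta induced matrix protein (2.13).

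For 11 osteoclast genes the sums were 2080 and 2107 in proliferative arrays, against 9094 and 7726 in hypertrophic arrays. Without Mmp9 they were 2052 and 2071 in proliferative arrays, against 5559 and 2035 in hypertrophic arrays. At 46 days the osteoclast sum without Mmp9 was not higher in the hypertrophic array than in the proliferative one. The part of osteoclasts in the Mmp9 difference was not tested. Of the 11, 3 were higher and 8 lower (median -0.68), 10 were dim in both zones, and Acp5, the acid phosphatase that defines osteoclasts, was below the median probe set in all 4 arrays, at 6.52 and 6.30 in proliferative arrays and 5.40 and 5.01 in hypertrophic arrays. Ctsk, cathepsin K, the other defining gene, read 4.86 and 8.29 in proliferative arrays, against 9.35 and 8.77 in hypertrophic arrays, all below the other-organ level. Ctsk, Mmp9, Car2 (difference -2.89) and Itgb3 (-1.75) were the 4 list members lower in both proliferative arrays, or 36.4% (all genes, 15.8%). Acp5 was the 1 higher in both, or 9.09% (all genes, 15.5%). The Mmp9 difference was as large at 46 days (-6.78) as at 42 days (-6.32).

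For 27 leukocyte and marrow genes the sums were 5234 and 5958 in proliferative arrays, against 30104 and 5715 in hypertrophic arrays, with 8 genes higher, 19 lower (median -0.55) and 25 dim in both zones. The zones were apart for 8 lower genes (29.6%) and 5 higher genes (18.5%). Over all genes the shares were 15.8% and 15.5%, and in the other-organ list 26.3% and 13.2%. S100a9, a neutrophil protein, read 6.36 and 5.44 in proliferative arrays, against 10.13 and 9.20 in hypertrophic arrays (difference -3.77, SE 0.74, adjusted p = 0.267). Srgn, the proteoglycan of blood cell granules, read 4.63 and 8.34 in proliferative arrays, against 11.08 and 9.57 in hypertrophic arrays (difference -3.84, adjusted p = 0.804). Cd48, a surface protein of leukocytes picked after its values were seen, ran the other way, at 9.67 and 9.23 in proliferative arrays, against 6.33 and 5.93 in hypertrophic arrays (difference 3.33, adjusted p = 0.751). Cd3e (2.22), Cd14 (1.66) and Plek (1.65), dim genes of T cells and myeloid cells, were also higher in both proliferative arrays.

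For 15 erythroid genes the sums were 4660 and 6198 in proliferative arrays, against 14008 and 5504 in hypertrophic arrays (7 higher, 8 lower). Hemgn, hemogen, a blood-forming cell regulator, differed by -2.69. For 15 endothelial genes they were 3188 and 4141 in proliferative arrays, against 5133 and 4523 in hypertrophic arrays (5 higher, 10 lower). Kdr, the main VEGF receptor of vessels, differed by -2.27. The leukocyte and erythroid sums were thus high only in the 42-day hypertrophic array of these 4.

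Among the 38 other-organ genes 12 were higher and 26 lower, with a median of -0.48, so this mostly dim list also had a median below 0. The part of other cell types in the Mmp13, Mmp9, Ibsp and Dmp1 differences was not tested. The Mmp13 difference was -5.52 at 46 days, where the leukocyte and erythroid sums did not exceed those of the proliferative array and the bone sum did, at 7618 in the proliferative and 15734 in the hypertrophic array. Without Ibsp, a member of that list, the 46-day bone sums were 7567 in the proliferative and 10059 in the hypertrophic array.

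**Figure D4:**
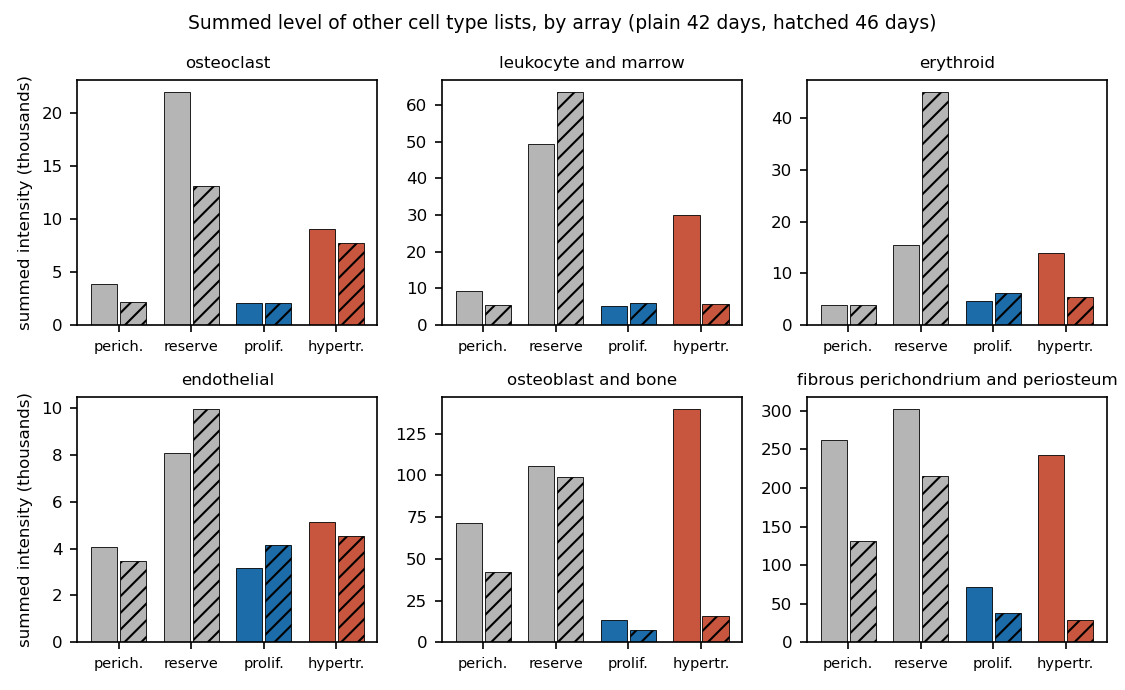
Summed intensity (vertical axis, linear and from 0) of 6 lists of other cell types in each array, by zone, with plain bars for 42 days and hatched bars for 46 days. In each of the 6 panels the 42-day hypertrophic array (red, plain) exceeds the 46-day hypertrophic array and both proliferative arrays (blue).

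The zone differences at 42 and 46 days were also set side by side. Across the 14217 genes the 42-day and 46-day differences correlated at 0.0272, a description across genes, with 1 array against 1 at each age. Of these genes, 841 were higher by more than 1 in proliferative arrays at both ages, and 806 were lower by more than 1 at both. Together they were 1647 of the 14217. Genes past 1 in opposite directions at the different ages were not counted, so these counts do not measure agreement between ages. The dependence on age passed an adjusted p below 0.05 for 238 of 31042 probe sets (0.767%, limma), and for 60 to 106 under other settings. In that test each zone and age has 1 array, the spread is borrowed from the perichondral and reserve arrays and the prior, and age and pool cannot be told apart. It does not show that another pool of the same age would differ likewise. Mmp13 (-6.08 at 42 days, -5.52 at 46 days), Col10a1 and Serpinh1 (5.30 and 4.90) had differences of similar size at both ages, whereas C1qtnf3 differed by 9.27 at 42 days and 1.29 at 46 days. For Serpinh1 the hypertrophic values were near the floor of the scale, which limits how far they can differ between ages.

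**Figure D5:**
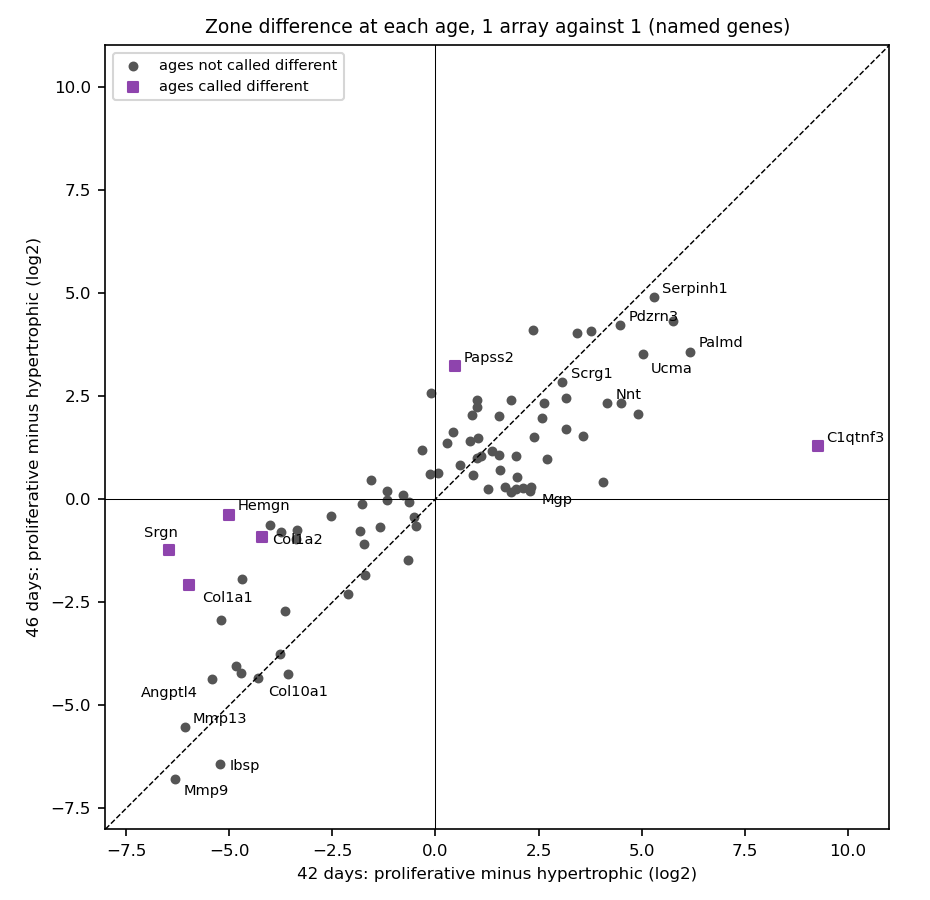
Proliferative minus hypertrophic difference in log2(intensity + 16) at 42 days (horizontal axis) and 46 days (vertical axis) for the genes and probe sets named here, with the dashed line where both ages are equal. Purple squares are the 6 genes whose difference passed the age-dependence test. Mmp13, Mmp9 and Col10a1 lie near the line, and C1qtnf3 lies far right of it at 9.27 and 1.29.

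The named genes were also set among all 4 zones. They were chosen for this contrast, so their order is a description. For the 11 named genes and probe sets on the proliferative side, the hypertrophic arrays were below all other 6 arrays in 11, and the proliferative arrays were above all others in 1. For the 11 on the hypertrophic side, the proliferative arrays were below all others in 9, and the hypertrophic arrays were above all others in 2. Over all 2210 genes with both proliferative arrays above both hypertrophic arrays, the hypertrophic arrays were lowest of all in 29.2% and the proliferative arrays highest of all in 24.1%. Over the 2249 in the other direction, the hypertrophic arrays were highest in 27.2% and the proliferative arrays lowest in 25%, so over all genes the hypertrophic arrays were the extreme ones somewhat more often in both directions.

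Mmp13 stood at 12.08 and 9.77 in perichondral, 14.75 and 14.73 in reserve, 8.65 and 8.57 in proliferative and 14.73 and 14.09 in hypertrophic arrays. Mmp9 stood at 9.04 and 5.36 in perichondral, 13.30 and 12.09 in reserve, 5.48 and 5.70 in proliferative and 11.79 and 12.48 in hypertrophic arrays. Reserve arrays were as high as hypertrophic arrays in both genes. Reserve arrays also had the largest leukocyte sums, at 49424 and 63655. Their osteoclast sums were the largest as well, at 22046 and 13123 with Mmp9, a member of that list. Without Mmp9 these reserve sums were 11980 and 8772, again the largest. The part of such cells in the Mmp13 and Mmp9 levels was not tested.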

How the data were processed

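Gene expression was measured on 8 Affymetrix rat arrays. Per the labels, RNA was isolated on RNeasy columns, amplified by the Ovation method and biotin labelled. The deposited values are linear intensities of 31099 probe sets. MAS5, GCOS and RMA appear in the submitters' processing notes, without versions or roles. The mean intensity, trimmed by a share of 0.02, was 500.08 to 500.16 in each array. Precision is limited by how few arrays there are.

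From the deposited intensities, 57 control probe sets were dropped, and the other 31042 were put on the scale log2(intensity + 16). Array medians on the log2 scale ran from 7.92 to 8.51, a gap above 0.1, so arrays were quantile normalized. Zone means were fitted to all 8 arrays with limma 3.58.1 in R 4.3.3 (eBayes, trend = TRUE; 12.58 prior and 4 residual degrees of freedom). Probe sets are named from the platform's annotation: 20826 had 1 symbol, 436 several and 9780 none. Of those with 1, 20758 matched RefSeq by gene identifier and 0 symbols changed. Each of 14217 genes is read by its brightest probe set.

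Genes were named up to 15 per direction by difference past the threshold, filled up to 10 by the moderated t statistic. Each had 1 symbol, zones that do not overlap and, in its higher zone, a mean over the median probe set. A set of growth plate genes was given in any case, of which 27 were measured. Up to 4 members per list followed by size of difference, above the other-organ level. A limit of these to members with zones apart was added after the values were seen. Acp5, Ctsk, Car2, Itgb3, Cd48, Cd3e, Cd14, Plek, Plin1, Lep and Cidec were also chosen after their values were seen. Members and lists were chosen with earlier results of these data known.

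The ages are shared by the zones, so age as a block served as the paired analysis. The change from 42 to 46 days correlated at 0.0806 between the zones over all probe sets and at 0.31 over the brightest share of 0.2. The test was tried on simulated data (5 simulations of this contrast, 200 of 31042 probe sets changed). It recovered 0.7% of log2 changes of 2, 46.1% of 4 and 85.5% of 6. Among the calls 12.5%, 5.73% and 4.79% were false, in that order. The simulated noise was independent between arrays, whereas the arrays here share ages, so these shares may not carry over.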

Additional observations from a re-analysis of the deposited data

Results flagged for a closer look

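The proliferative minus hypertrophic difference passed a test of dependence on age (limma, adjusted p below 0.05) for 6 of the named genes, each with 1 array per zone and age. The spread in that test is borrowed from the other zones, so 1 odd array can decide a result, and the sizes below are given as values. For C1qtnf3 it was 9.27 at 42 days and 1.29 at 46 days, a change of -7.98, which rests on the 42-day proliferative array (15.80, against 9.66 at 46 days). For Papss2 the change was 2.76, as its difference was 0.47 at 42 days and 3.24 at 46 days. In the collagens Col1a1 and Col1a2 the difference was -5.97 and -4.22 at 42 days and -2.08 and -0.93 at 46 days, a change of 3.88 and 3.29. For the blood cell genes Srgn and Hemgn the change was 5.22 and 4.62. In Col1a1, Col1a2 and Hemgn the 42-day hypertrophic array was the highest of the 4 arrays, and in Srgn it was too. Whether age or the pools differ cannot be told apart.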

How the results depend on the processing

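The 20 named genes kept their direction in all 17 alternatives in which they could be fitted (16 for Angptl4). They were named for zones that do not overlap, so leaving out arrays could not turn a sign, and this is no measure of stability. Calls depended on the setting, and the causes were not tested. Against 4 probe sets called (1 higher, 3 lower; 2 named genes), there were 3 (0 higher) on intensities as deposited, 0 with arrays median-centred (1574 at an unadjusted p below 0.05), 2 (0 higher, 1 named) with a pseudocount of 1, 3 (0 higher) with 64, 0 among brighter probe sets (872 unadjusted), 1 (0 higher, 1 lower, 1 named) with the 4 arrays of the pair alone, 0 without the variance trend (1808 unadjusted), and 11 (5 higher, 6 lower, 7 named) with age as a replicate block. Leaving out each array in turn gave 0 to 13 calls, 0 to 8 higher, 0 to 9 lower and 0 to 3 named genes. The adjusted p ran from 7.84e-05 to 0.716 for Mmp13 and from 0.002 to 0.716 for Mmp9. Without both 46-day arrays of the pair, added after seeing the data, 3 were called (2 higher, 1 lower, 1 named), of which 0 were among the 4.

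Of 30 list medians, 15 were below 0 against 9 at 46 days and 13 to 18 with an array left out; the cartilage matrix median ran from 0.99 to 1.88 with an array left out. Age dependence was called for 238 probe sets, against 88 as deposited, 106 median-centred, 60 with a pseudocount of 1 and 84 among brighter probe sets.

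Without both 46-day arrays the sign turned for Pth1r (-0.13), Vegfa (-0.32) and Phospho1 (-0.11). With an array left out, signs turned for Spp1 (-0.81 to 0.093), Alpl (-0.91 to 0.24), Pth1r (-0.050 to 0.54), Vegfa (-0.61 to 1.47), Panx3 (-0.39 to 1.10), Mgp (-0.81 to 3.42), Mki67 (-1.08 to 0.10), Pcna (-1.38 to 0.18) and Npr2 (-1.10 to 0.012). Array number limits what can be called.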

Other observations

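Genes of cell death, solute transport and fat cells are not described above. Of 33 measured genes of apoptosis and autophagy, 19 were higher and 14 lower in proliferative arrays, with a median of 0.08 and 0 past the threshold. Diablo, which releases caspases from their inhibitors, read 8.82 and 8.85 in proliferative arrays, against 10.64 and 9.61 in hypertrophic arrays (difference -1.29, adjusted p = 0.909 with limma). Xiap, the inhibitor that Diablo binds, ran the other way, at 10.75 and 9.60 in proliferative arrays, against 9.18 and 8.91 in hypertrophic arrays (difference 1.13, adjusted p = 0.927). Apaf1, the scaffold that activates caspases, was also higher in both proliferative arrays, by 0.99 (adjusted p = 0.927).

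Of 29 genes of water, ion and solute transport, 12 were higher and 17 lower (median -0.11). Slc12a2, a sodium, potassium and chloride cotransporter that regulates cell volume, read 10.12 and 9.74 in proliferative arrays, against 11.46 and 10.41 in hypertrophic arrays (difference -1.01, SE 0.56, adjusted p = 0.913). Of 9 adipocyte genes, 6 were higher and 3 lower (median 0.29). Both proliferative arrays lay above both hypertrophic arrays for 3, or 33.3% (all genes, 15.5%), namely Plin1, Lep and Cidec, all dim. They lay below for 2, or 22.2% (all genes, 15.8%). Lpl, lipoprotein lipase, which Angptl4 inhibits, was 1 of the 2 and read 10.12 and 9.40 in proliferative arrays, against 11.84 and 10.50 in hypertrophic arrays (difference -1.41, SE 0.69, adjusted p = 0.900). The zones did not overlap for Slc12a2 and Lpl, and neither passed the test.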
